A study of Mus musculus with 7 samples.

Results

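The MYC, MAX and MXD network was followed in the nascent RNA of GFI1+ IAHC cells, which sit in clusters on the wall of the embryonic aorta and were sorted by CD31, cKIT and a Gfi1 reporter. Its members were 10 listed genes, found by symbol among the 55487 genes of the count table: Myc, Mycn, Mycl, Max, Mxd1, Mxd3, Mxd4, Mxi1, Mnt and Mlx. Of these, 8 reached 10 counts in 2 or more libraries of the same condition and were tested, as did 10311 genes in all, and Mycl and Mxd3 did not. The cells came from the AGM (aorta-gonad-mesonephros) of E11.5 embryos of a strain labelled CD1/Gf1+, were sorted, and were kept overnight in compound E (compE), which blocks γ-secretase and with it the cleavage that activates Notch receptors. All groups therefore had the overnight compE. The next morning, sets of 300 to 400 cells were cultured for 4 h in methylcellulose with 0.3 mM of the uridine analog EU, which marks newly made RNA. The groups were Fc-JAG1, a recombinant Notch ligand added to the culture (2 libraries, Fc-JAG1 1 and 3), compE, in which the inhibitor was put back (2 libraries, compE 1 and 2), and washout, which got DMSO only (3 libraries, washout 1, 2 and 3). Library numbers mark the biological sample, which the labels call an embryo, while the methods describe cells purified from pools of embryos. The authors state that they excluded the Fc-JAG1 library of sample 2 because too few of its reads aligned uniquely. The labels and the methods give the amounts of compE and Fc-JAG1 in different units, so neither amount is given here.

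MYC proteins (MYC, MYCN and MYCL) bind DNA only as heterodimers with MAX, mostly at the E-box CACGTG, and raise transcription of genes for ribosome production, nucleotide synthesis and cell growth. MXD1, MXD3, MXD4, MXI1 and MNT compete for the same partner and bring SIN3 and histone deacetylase complexes to the same sites, and MLX is a related partner that shares some of these antagonists and also pairs with the MONDO proteins. In blood stem cells MYC is linked to the exit from the niche and the onset of differentiation, MXD1 to myeloid differentiation, and Myc is a known Notch target in T cell leukemia.

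The E-box is also present in the promoters of the network itself, which is why these sequences are shown. RefSeq (GRCm38.p6) held promoter entries, 250 bases before to 50 after a transcript start, for 9 of the 10 members, 11 promoters in all. Mxi1 had more than 1 entry. Myc had none, so the promoter of Myc was not searched for any motif. CACGTG, which reads the same on both strands, was in 4 of the 11, those of Max, Mnt, Mxd4 and Mlx, with 1 copy each, and in 7.15% of 32851 mouse promoters of the same length. It began at −3 from the start in Max, at −123 in Mnt, at −219 in Mxd4 and at −40 in Mlx, and it is in capitals below. GTGGGAA, the motif of the Notch effector RBPJ, searched on both strands, was in 0 of the 11 and in 6.38% of all promoters. A match describes the letters of the window and is no evidence of binding.
Max (chr12:76962199-76962498, minus strand): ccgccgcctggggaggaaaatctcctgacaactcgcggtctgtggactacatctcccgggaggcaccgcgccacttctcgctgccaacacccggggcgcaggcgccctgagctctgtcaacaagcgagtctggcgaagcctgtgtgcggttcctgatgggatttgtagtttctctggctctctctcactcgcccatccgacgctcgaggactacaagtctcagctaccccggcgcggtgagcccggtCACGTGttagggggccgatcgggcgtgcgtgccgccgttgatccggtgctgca
Mnt (chr11:74830674-74830973, plus strand): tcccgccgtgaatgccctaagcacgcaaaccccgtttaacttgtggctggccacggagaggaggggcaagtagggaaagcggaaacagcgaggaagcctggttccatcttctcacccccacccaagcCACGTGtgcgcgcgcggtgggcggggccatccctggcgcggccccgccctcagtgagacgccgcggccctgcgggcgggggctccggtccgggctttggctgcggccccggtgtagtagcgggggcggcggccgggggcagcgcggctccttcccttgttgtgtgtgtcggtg
Mxd4 (chr5:34187661-34187960, minus strand): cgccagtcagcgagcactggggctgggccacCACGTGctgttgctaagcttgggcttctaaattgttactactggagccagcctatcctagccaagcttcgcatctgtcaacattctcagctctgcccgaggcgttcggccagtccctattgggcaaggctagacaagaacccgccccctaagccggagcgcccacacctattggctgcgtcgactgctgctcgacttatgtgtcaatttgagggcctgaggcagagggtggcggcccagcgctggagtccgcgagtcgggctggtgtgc
Mlx (chr11:101087040-101087339, plus strand): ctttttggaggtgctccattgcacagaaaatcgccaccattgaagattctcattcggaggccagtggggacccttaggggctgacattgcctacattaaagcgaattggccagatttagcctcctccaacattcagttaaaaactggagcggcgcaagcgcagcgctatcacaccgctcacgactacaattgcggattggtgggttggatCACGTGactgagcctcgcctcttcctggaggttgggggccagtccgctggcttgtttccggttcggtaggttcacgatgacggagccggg

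How many members were seen at all differed between libraries and went with how many genes were seen. Total counts per library ran between 21652927 and 33974693. The share of the 10311 tested genes with at least 10 counts was 90.5% and 69.9% in Fc-JAG1 1 and 3, 71.1% and 92.4% in compE 1 and 2, and 56.2%, 94.2% and 68.0% in the washout libraries 1, 2 and 3. Of the 10 members, 9 and 5 reached 10 counts in Fc-JAG1 1 and 3, 5 and 6 in compE 1 and 2, and 3, 8 and 3 in the washout libraries 1, 2 and 3. The 3 libraries with the most genes, 1 from each group, thus also had the most members. Of 9 markers of the sorted cells, 7 or 8 reached 10 counts in each library, and Kit, Runx1, Spi1 and Cd34 had at least 1811 counts in every one. The others were uneven. Pecam1, which encodes the sort marker CD31, had 11 counts in Fc-JAG1 3 and 18 in washout 1, against 1186 or more elsewhere. Itga2b had 184 in Fc-JAG1 3 and 8 in washout 1, against 6790 or more elsewhere, and Ptprc had 3 in washout 3, against 2183 or more elsewhere. Gfi1, the reporter gene of the sort, had 2504 counts in Fc-JAG1 1, 2477 in washout 3, 12 in washout 2 and 0 in the other 4 libraries. Cdh5, an endothelial cadherin, had 0 to 139 counts. Markers of other cells at 10 counts or more were 2 to 7 of 8 for macrophages, 1 to 6 of 8 for erythroid cells, 0 to 2 of 7 for mesenchyme, 0 to 1 of 5 for neural cells and 0 to 2 of 5 for epithelium. Some had many counts. Csf1r had 1018 to 3627 in every library and Lyz2 0 in compE 1 to 13012 in Fc-JAG1 1. Hbb-bs had 10649 in washout 2 and Hbb-y 2142 in Fc-JAG1 3. Others, such as C1qb (at most 6) and Alas2 (0), had few or none. The part of such cells in the values below was not tested.

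**Figure D1:**
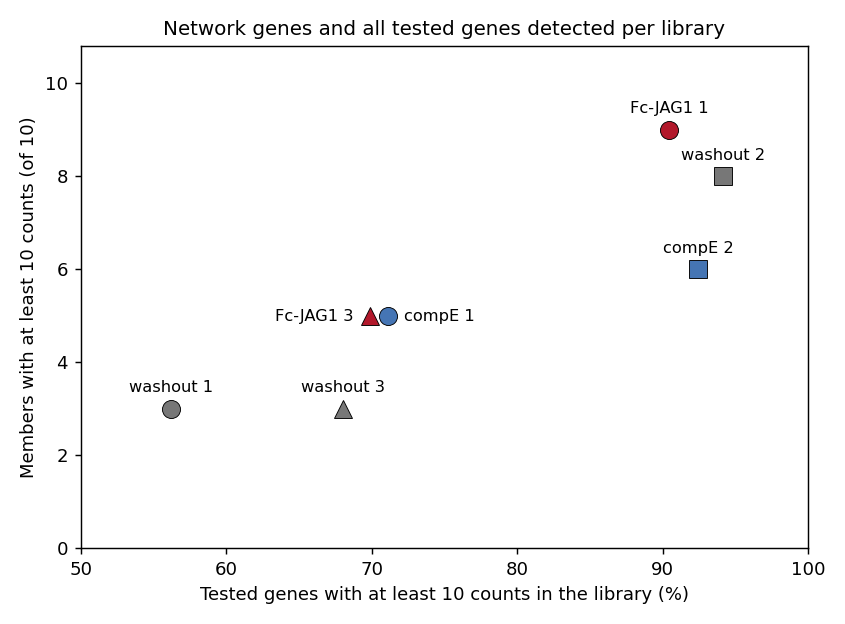
Members with at least 10 counts (vertical axis, of 10) against the percentage of tested genes with at least 10 counts (horizontal axis) in the 7 libraries, 1 point each. Fc-JAG1 is red, compE blue and washout grey, and the shape gives the biological sample. Washout 1 and 3 had 3 members each and Fc-JAG1 1 had 9.

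Myc, the founding member of the family (chr15:61985391-61990374, GRCm38), was the only member with at least 10 counts in all 7 libraries, as were 29.4% of the tested genes. Fc-JAG1 1 held 30302 counts of it and Fc-JAG1 3 held 1369, compE 1 and 2 held 7671 and 35489, and washout 1, 2 and 3 held 19111, 27439 and 47501. In CPM, which scale counts to library size, here with TMM factors, Myc stood at 832 and 58.0 in Fc-JAG1 1 and 3, at 303 and 916 in compE 1 and 2, and at 1109.6, 760.5 and 1693 in the washout libraries 1, 2 and 3. Fc-JAG1 3 was lowest by far and compE 1 next, while Fc-JAG1 1 and compE 2 lay within the washout range, so the groups overlapped. In bulk RNA of this kind, fewer cells that make a transcript and less of it per cell cannot be told apart.

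Neither treatment moved Myc past the test. With Fc-JAG1 against washout, edgeR's quasi-likelihood test gave a log2 fold change of −1.74 (standard error 0.96, Benjamini-Hochberg adjusted p = 0.83) and DESeq2 one of −2.27 (adjusted p = 0.0794). For compE against washout, edgeR gave −1.34 (standard error 1.01, adjusted p = 1.00) and DESeq2 −1.48 (adjusted p = 0.41). Within biological samples, the log2 CPM of Fc-JAG1 minus that of washout was −0.42 in sample 1 and −4.87 in sample 3. The medians of this difference over all genes were 1.4953 and 0.0, so Myc lay below the median gene in both samples. For compE the within-sample differences were −1.87 in sample 1 and 0.27 in sample 2, beside medians over all genes of 0.1142 and 0.0. Without Fc-JAG1 3 the edgeR value with Fc-JAG1 was 0.02, and so it was without washout 3, the only library paired with it. The negative edgeR value thus rests on sample 3, while DESeq2 still gave −0.64 without Fc-JAG1 3 and −0.71 without washout 3. Without compE 1 the edgeR value with compE was 0.25.

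By length, Myc was near the top of the libraries. Its mean level over the 7 libraries was 298 CPM per kb of exon, above 99.5% of the 10300 tested genes with a length in GENCODE M21, and 163 CPM per kb of gene span, again above 99.5%. Both lengths are given because the methods name the gene as the counted feature, which can mean its whole span or the sum of its exons. Mycn, the paralog that stands in for Myc in parts of the embryo (chr12:12936093-12941914), was at 173 and 6.90 CPM in Fc-JAG1 1 and 3, at 466 and 146 CPM in compE 1 and 2, and at 0, 101 and 247 CPM in the washout libraries 1, 2 and 3. The 0 of washout 1 allows up to 0.174 CPM, the level of 3 counts there, and this covers counting error only. Per kb of exon, the level of Mycn was 0.0982 to 0.171 of that of Myc in the 2 Fc-JAG1 libraries, compE 2, washout 2 and washout 3, but 1.27 of it in compE 1 (1.32 per kb of gene span). CompE 1 was thus the only library in which Mycn stood above Myc. The Mycn fold change did not pass in any comparison by edgeR (log2 −1.19 ± 3.28 with Fc-JAG1 and 0.95 ± 2.65 with compE against washout, standard errors, adjusted p = 1.00 for both). DESeq2 called it in none with all 7 libraries, but without Fc-JAG1 1 it called Mycn lower with Fc-JAG1 than with compE (−12.50, adjusted p = 0.0412, against −2.50 with all libraries). Mycl (chr4:122995652-123002485) had 1 count in Fc-JAG1 1 and 0 in the other 6 libraries.

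**Figure D2:**
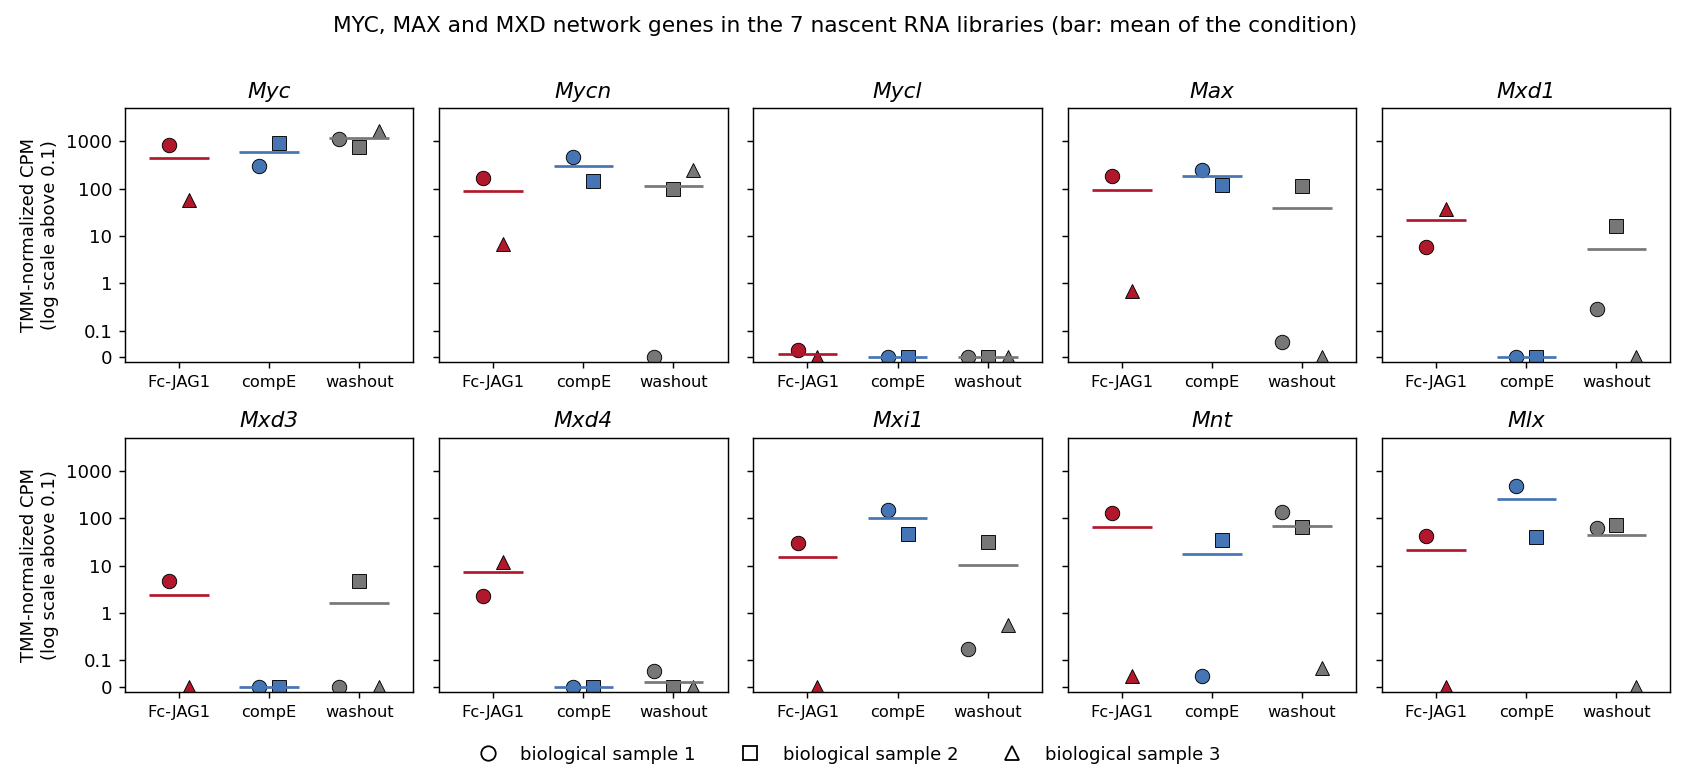
TMM-normalized CPM of the 10 members (vertical axis, log scale above 0.1 and linear below) in Fc-JAG1, compE and washout libraries. Each point is 1 library, its shape gives the biological sample, and the bar is the mean of the condition. Myc has 58.0 CPM or more in every library, whereas Max has either 115 CPM or more or 0.68 CPM or less, and Mnt either 34.8 CPM or more or 0.0713 CPM or less.

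Max, the obligate partner of the MYC proteins and a partner of the MXD proteins (chr12:76937269-76962201), was seen in both compE libraries and at 0 or 1 count in 2 of the 3 washout libraries. It had 6716 and 16 counts in Fc-JAG1 1 and 3, 6202 and 4661 in compE 1 and 2, and 1, 4150 and 0 in the washout libraries 1, 2 and 3. In CPM these were 184 and 0.68 with Fc-JAG1, 245 and 120 with compE, and 0.0581, 115 and 0 in the washout. Both compE libraries lay above all 3 washout libraries, by a small step over washout 2, while Fc-JAG1 and washout overlapped. In both comparisons with the washout, Max reached 10 counts in 2 libraries of a condition only with the treatment. Had it been low there, it could not have been called, so its calls as higher are no independent support of that direction. DESeq2 called Max higher with Fc-JAG1 than in the washout (log2 fold change 6.52, standard error 2.45, adjusted p = 0.0402), and edgeR did not (3.71, standard error 4.28, adjusted p = 0.99). The DESeq2 call was lost without Fc-JAG1 1 (log2 fold change 6.66, adjusted p = 0.30), Fc-JAG1 3 (5.87, adjusted p = 0.26), washout 1 (3.76, adjusted p = 0.38) or washout 3 (5.79, adjusted p = 0.25), and without the replicate block, where the log2 fold change was 1.28 and DESeq2 gave no adjusted p. With compE, DESeq2 gave 6.29 (adjusted p = 0.0593), and edgeR gave 3.24 (standard error 3.55, adjusted p = 1.00). DESeq2 called this difference without compE 2 (10.44, adjusted p = 0.0104) or washout 2 (10.41, adjusted p = 0.0107), while without compE 1 it was 0.013 (adjusted p = 1.00). Sample 2, with 120 CPM in compE 2 and 115 CPM in washout 2, showed a log2 difference of 0.06, while sample 1 showed 10.92, since Max had 1 count in washout 1.

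Among the antagonists, Mxd1 and Mxd4 shared a pattern: counts in both Fc-JAG1 libraries and 0 in both compE libraries. Mxd1, which encodes the MXD protein of differentiating myeloid cells (chr6:86647042-86669161), had 217 and 899 counts in Fc-JAG1 1 and 3, 0 and 0 in compE 1 and 2, and 5, 580 and 0 in the washout libraries 1, 2 and 3. In CPM it stood at 5.96 and 38.1 with Fc-JAG1, at 0 and 0 with compE, where 3 counts would be 0.119 and 0.0774 CPM, and at 0.29, 16.1 and 0 in the washout. Its mean with Fc-JAG1 was at least 225-fold higher than with compE, taking 3 counts per library as the floor for compE, and at least 60.8-fold higher without Fc-JAG1 3. This floor covers counting error only and not the spread between libraries, which in the washout alone was 0 to 16.1 CPM. DESeq2 called this difference (log2 fold change 14.93, standard error 3.35, adjusted p = 0.000622), and edgeR did not (18.78, standard error 7.54, adjusted p = 1.00). Fitted values against a group at 0 have no firm size. Mxd1 met the count rule for testing only through the Fc-JAG1 libraries, so that a gene low there would not have been tested, and its calls as higher with Fc-JAG1 are no independent support of that direction. The DESeq2 call remained when each of the 7 libraries was left out (adjusted p 0.000605 to 0.0323), and without the replicate block DESeq2 gave no adjusted p. Having at least 10 counts in both Fc-JAG1 libraries and 0 in both compE libraries was a trait of 57 of the 10311 genes (0.553%), and 68 genes (0.66%) showed the opposite trait.

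Against the washout, Mxd1 overlapped between groups, since washout 2 lay between the 2 Fc-JAG1 libraries. DESeq2 called it higher with Fc-JAG1 (log2 fold change 7.35, standard error 2.61, adjusted p = 0.0283), and edgeR did not (7.63, standard error 4.21, adjusted p = 0.83). The call was lost without Fc-JAG1 3, where the value was 1.99 (adjusted p = 0.77), and likewise without washout 3 (2.00, adjusted p = 0.75) and without washout 1 (7.78, adjusted p = 0.0669). Without the replicate block the value was 2.29 and DESeq2 gave no adjusted p. With compE against the washout, Mxd1 had at least 10 counts in only 1 of the 5 libraries and did not meet the count rule for a call.

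Mxd4, another MXD antagonist (chr5:34173883-34187720), had 82 and 287 counts in Fc-JAG1 1 and 3, 0 and 0 in compE 1 and 2, and 1, 0 and 0 in the washout libraries 1, 2 and 3. Both Fc-JAG1 libraries, at 2.25 and 12.2 CPM, thus lay above the compE libraries at 0 and the washout libraries at 0.0581, 0 and 0 CPM. With 3 counts per library as the floor, Mxd4 was at least 73.5-fold higher with Fc-JAG1 than with compE, and at least 23.0-fold higher without Fc-JAG1 3. This floor, too, covers counting error only. The edgeR log2 fold change against the washout was 8.31 (standard error 3.29, adjusted p = 0.83), and that of DESeq2 8.55 (standard error 4.61, adjusted p = 0.19). Mxd4, too, was tested only because of its counts in the Fc-JAG1 libraries, and the same limit holds. Without the replicate block, DESeq2 called Mxd4 higher with Fc-JAG1 against the washout (8.87, adjusted p = 0.00267) and against compE (10.39, adjusted p = 0.00403). With the block, it called Mxd4 higher against the washout without washout 1 (10.00, adjusted p = 0.0193). The value was 7.78 without compE 1 and 10.83 without Fc-JAG1 1, fits that left 1 library in a condition. Per kb of exon, the levels of both genes were low: the mean over libraries was 1.22 CPM for Mxd1 and 0.244 CPM for Mxd4, above 15.3% and 5.11% of the tested genes. Mxd3 (chr13:55325168-55329823), an antagonist of cycling cells, had 173 counts in Fc-JAG1 1, 175 in washout 2 and 0 in the other 5 libraries. It overlaps Prelid1 on the opposite strand, and the sources used here do not say whether counting used the strand.

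Mxi1 and Mnt did not follow Mxd1. Mxi1, also called MXD2 (chr19:53310518-53375810), had 1108 and 0 counts in Fc-JAG1 1 and 3, 3871 and 1850 in compE 1 and 2, and 3, 1119 and 16 in the washout libraries 1, 2 and 3. The compE libraries, at 153 and 47.7 CPM, lay above both Fc-JAG1 libraries, at 30.4 and 0 CPM, and above the washout libraries, at 0.174, 31.0 and 0.57 CPM. No fit called it: with compE against the washout the log2 fold change was 2.83 by edgeR (standard error 3.29, adjusted p = 1.00) and 1.05 by DESeq2 (adjusted p = 0.91). With Fc-JAG1 against the washout, edgeR gave 1.02 and DESeq2 −2.31, so its direction there was not settled.

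Mnt, the most widely expressed antagonist (chr11:74830920-74845725), had either 1350 counts or more in a library or at most 2. The counts were 4724 and 1 in Fc-JAG1 1 and 3, 1 and 1350 in compE 1 and 2, and 2398, 2409 and 2 in the washout libraries 1, 2 and 3. In CPM, Mnt stood at 130 and 0.0424 with Fc-JAG1, at 0.0395 and 34.8 with compE, and at 139, 66.8 and 0.0713 in the washout, so that every pair of groups overlapped. Mnt met the count rule for testing only through washout 1 and 2, so a call as lower than the washout is no independent support of that direction. DESeq2 called it lower with compE than in the washout (log2 fold change −6.43, standard error 2.25, adjusted p = 0.0470), and edgeR did not (−3.57, standard error 3.55, adjusted p = 1.00). Without compE 1 the DESeq2 value was −0.99 (adjusted p = 1.00) and without washout 1 it was −4.30 (adjusted p = 0.54). The call was also lost without Fc-JAG1 1 (−6.38, adjusted p = 0.15), Fc-JAG1 3 (−6.36, adjusted p = 0.0950) or washout 3 (−6.37, adjusted p = 0.0953), without the replicate block (−2.61, adjusted p = 0.89) and with TMM factors in DESeq2 (−6.26, adjusted p = 0.0557). It remained without compE 2 (−12.10, adjusted p = 0.00251) or washout 2 (−12.12, adjusted p = 0.00248). With Fc-JAG1 against the washout, Mnt was at 0.68 by edgeR (standard error 3.07) and −0.20 by DESeq2.

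Mlx, the partner of the parallel MONDO arm that senses glucose-derived metabolites (chr11:101087277-101092207), was highest in compE 1. It had 1527 and 0 counts in Fc-JAG1 1 and 3, 12070 and 1565 in compE 1 and 2, and 1055, 2610 and 0 in the washout libraries 1, 2 and 3, or 477 CPM in compE 1 and 0 to 72.3 CPM in the other 6. Its edgeR log2 fold change was −1.80 ± 3.63 with Fc-JAG1 and 1.06 ± 2.80 with compE against the washout (standard errors, adjusted p = 1.00 for both). Without compE 1 the value with compE was −0.86. Mlx overlaps Psmc3ip on the opposite strand, which had 969, 905 and 2645 counts in compE 2, washout 2 and washout 3 and 0 elsewhere. Washout 3 thus had 2645 counts of Psmc3ip and none of Mlx.

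Counted over the network, edgeR called 0 of the 8 tested members in each of the 3 comparisons, as it called 0 of 10311 genes (0.0%) in each. At an unadjusted p under 0.05, edgeR had 526 genes (5.10% of those tested) with Fc-JAG1 against washout and 271 (2.63%) with compE against washout. With Fc-JAG1 against compE it had 292 (2.83%). Mxd4 was the member among the 526 and Mxd1 the member among the 292, and no member was among the 271. Limma voom called 1 gene in each comparison, no member. DESeq2, the test of the study's methods, called 2 members higher with Fc-JAG1 against washout (Max and Mxd1) and 0 lower, beside 15.7% of all genes higher and 4.74% lower. With compE against washout, it called 0 members higher and 1 lower (Mnt), beside 5.66% of genes higher and 3.67% lower. With Fc-JAG1 against compE, it called 1 member higher (Mxd1) and 0 lower, beside 9.18% of genes higher and 2.21% lower. Nothing is read from counts of 1 or 2 members beside such shares. The median log2 fold change over all genes was 0.44 with Fc-JAG1 against washout under TMM, 0.07 under the size factors of DESeq2 and 0.71 under total counts, −0.10, −0.22 and −0.12 with compE against washout, and 0.43, 0.16 and 0.72 with Fc-JAG1 against compE, and the members' values are to be read against these medians. The comparisons share libraries, so their values are not independent of each other.

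**Figure D3:**
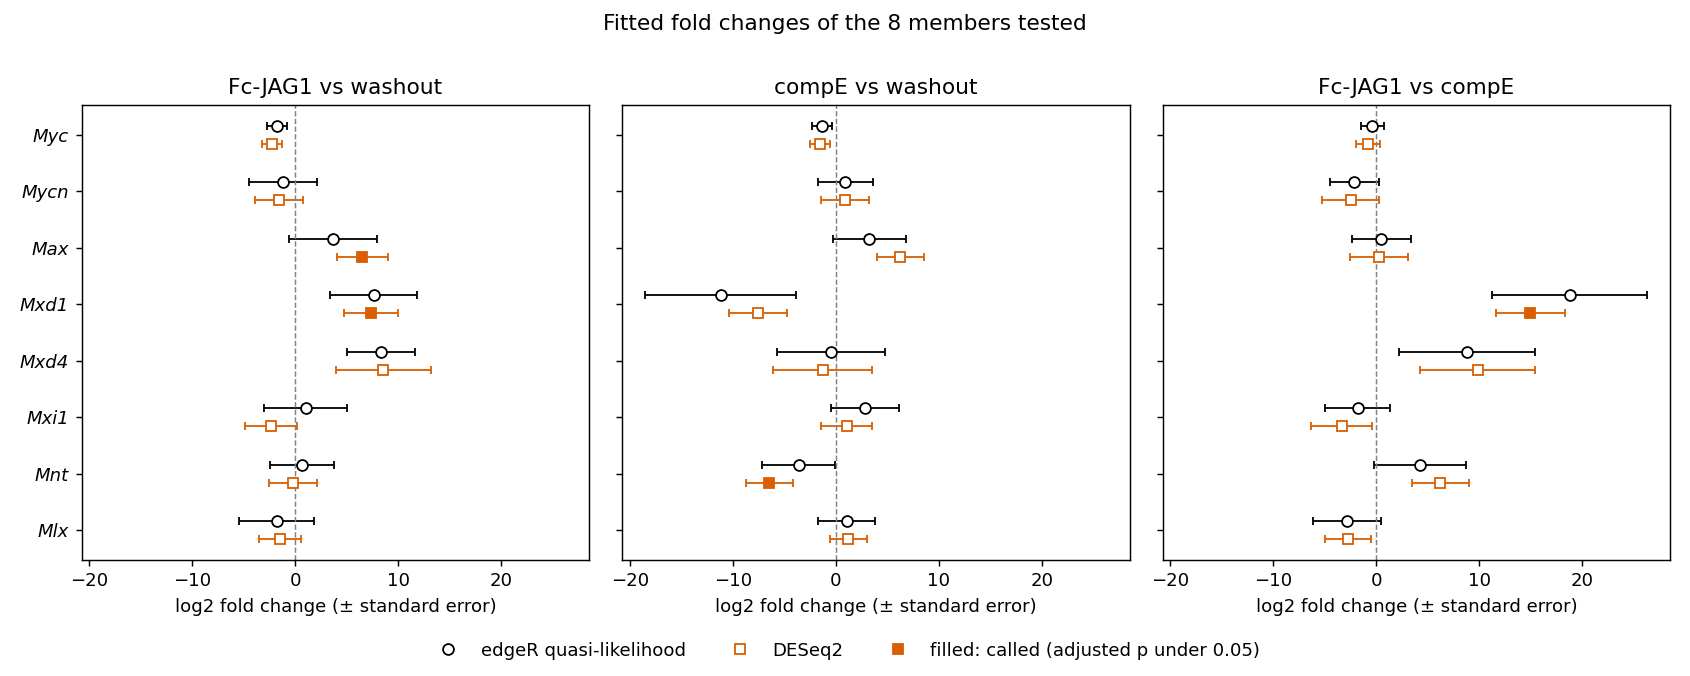
Log2 fold changes of the 8 tested members (horizontal axis, bars are standard errors) for Fc-JAG1 vs washout, compE vs washout and Fc-JAG1 vs compE, by edgeR (black circles) and DESeq2 (orange squares, filled where called). Only DESeq2 made calls, for Max and Mxd1 in the left panel, Mnt in the middle panel and Mxd1 in the right panel.

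With Fc-JAG1 against washout, Mxd4 was the 1 member of 8 whose libraries all lay higher, as for 10.5% of all genes, and 0 members lay wholly lower, as for 6.85% of all genes. With compE against washout, Max and Mxi1 lay wholly higher (10.9% of all genes) and 0 members wholly lower (6.79%). With Fc-JAG1 against compE, Mxd1 and Mxd4 lay wholly higher (15.0% of all genes) and Mxi1 wholly lower (15.4%).

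The sums of paralogs and antagonists moved mostly with single libraries. Summed CPM of Myc, Mycn and Mycl was 1005 and 64.9 in Fc-JAG1 1 and 3, 769 and 1062 in compE 1 and 2, and 1109.6, 861 and 1939 in the washout libraries 1, 2 and 3. Summed CPM of Mxd1, Mxd3, Mxd4, Mxi1 and Mnt was 173 and 50.3 with Fc-JAG1, 153 and 82.6 with compE, and 139.8, 119 and 0.641 in the washout. The antagonists made up 43.7% of the 2 sums in Fc-JAG1 3, 0.0331% in washout 3 of the same biological sample, and 7.22% to 16.6% in the other 5 libraries. In Fc-JAG1 3 nearly all of the antagonist sum was Mxd1 and Mxd4 (50.2 of 50.3 CPM), while in the other libraries most of it was Mxi1 or Mnt or both. These sums are a description of each library, and CPM of unlike lengths were added.

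**Figure D4:**
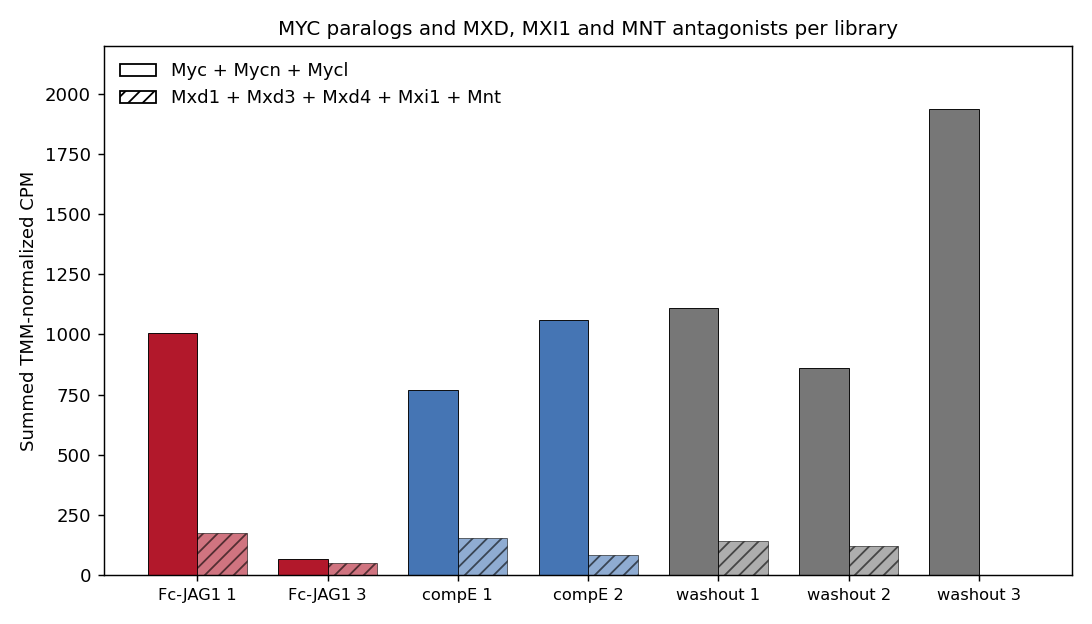
Summed TMM-normalized CPM (vertical axis) of Myc, Mycn and Mycl (plain bars) and of Mxd1, Mxd3, Mxd4, Mxi1 and Mnt (hatched bars) in each of the 7 libraries, Fc-JAG1 in red, compE in blue and washout in grey. The plain bar is lowest in Fc-JAG1 3 (64.9) and highest in washout 3 (1939), where the hatched bar is 0.641.

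The 3 libraries with the most genes, Fc-JAG1 1, compE 2 and washout 2, had closer values for most members. Myc was at 832, 916 and 760.5 CPM in them, so that its highest was 1.20 times its lowest, and the ratio was 1.71 for Mycn, 1.60 for Max, 1.57 for Mxi1, 1.79 for Mlx and 3.72 for Mnt. This ratio had, for the 8581 genes that reached 10 counts in all 3, a median of 2.18 (quartiles 1.58 and 3.69). Mxd1 differed among them, with 5.96 CPM in Fc-JAG1 1, 0 in compE 2 and 16.1 in washout 2. So did Mxd3, with 4.75, 0 and 4.85 CPM in the same order, and Mxd4, with 2.25, 0 and 0 CPM. These 3 come from 2 biological samples, with 1 library per condition, so the comparison has no replicate.

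Genes that work with the network or read it out were taken from lists written from general knowledge. Of 20 cofactors and further network genes, 18 were tested, and edgeR called 0 in each comparison. Their median log2 fold change by edgeR was 0.48 with Fc-JAG1 against washout and −0.31 with compE against washout, beside 0.44 and −0.10 over all genes. DESeq2 called 2 of the 18 higher with Fc-JAG1 against washout, Sin3b and Sap30, which encode parts of the SIN3 corepressor, beside 15.7% of all genes, so this count is no result about the list. Sap30 had 1965 and 53 counts in Fc-JAG1 1 and 3, 0 and 1796 in compE 1 and 2, while washout 1, 2 and 3 held 2, 1683 and 1 (log2 fold change 7.81 by DESeq2, adjusted p = 0.00243, and 9.40 by edgeR, adjusted p = 0.83). Sap30 was tested only because of its counts in the Fc-JAG1 libraries, so its call as higher is no independent support of that direction. Sin3b, which is named because of its call (DESeq2 log2 fold change 7.92, adjusted p = 0.0267), had 6886 counts in Fc-JAG1 1 and 1 in Fc-JAG1 3, while washout 1, 2 and 3 held 1, 2029 and 2344, and its value turned to −10.97 without Fc-JAG1 1. The Sap30 call was lost without Fc-JAG1 1 as well, and that of Sin3b also without compE 1, compE 2, washout 1 or washout 2. With compE against washout, DESeq2 called 1 of them lower, beside 3.67% of all genes. This was Wdr5, a chromatin subunit that binds MYC (−6.22, adjusted p = 0.0108). It met the count rule for this comparison only through the washout libraries, so its call as lower is no independent support of that direction. CompE 1 held 4 counts of it and compE 2 held 6678, while washout 1, 2 and 3 held 14953, 5632 and 3714, and without compE 1 the value was 0.092. This call was also lost without Fc-JAG1 1, Fc-JAG1 3, washout 1 or washout 3. Of 12 genes for MYC protein turnover, 9 were tested, edgeR called 0, and DESeq2 called 1 higher with Fc-JAG1, the scaffold gene Axin1 (4.56, adjusted p = 0.0450), again beside 15.7% of all genes. Fc-JAG1 1 and 3 held 5469 and 5631 counts of Axin1, while washout 1, 2 and 3 held 20, 2204 and 3921, and the call was lost without any 1 of the 7 libraries (values 0.74 to 6.64). Over these 9, the median log2 fold change by edgeR was 0.39 with Fc-JAG1 and −1.23 with compE against washout. By DESeq2 it was −0.18 with Fc-JAG1, so that the 2 tools differ in sign there.

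Known MYC targets of ribosome production, nucleotide synthesis and the cell cycle were seen in every library. Of 42 listed, 34 to 41 had at least 10 counts in each library. Their summed CPM was 17237 and 15137 in Fc-JAG1 1 and 3, 12460 and 14859 in compE 1 and 2, and 18693, 15955 and 17082 in the washout libraries 1, 2 and 3. Fc-JAG1 3, the library with 58.0 CPM of Myc, was inside the range of the other libraries in this sum, but it had the fewest targets at 10 counts (34, against 36 to 41 in the others) and the lowest median level of a target (185 CPM, against 208 to 308 in the others). EdgeR called 0 of the 41 tested in each comparison, and their median log2 fold change was −0.15 with Fc-JAG1 and −0.42 with compE against washout, beside 0.44 and −0.10 over all genes. Ncl, encoding the nucleolar protein nucleolin, had 93538 and 59483 counts in Fc-JAG1 1 and 3, 54317 and 95522 in compE 1 and 2, and 84648, 87106 and 55201 in the washout libraries 1, 2 and 3. DESeq2 called 1 of the 41 targets higher with Fc-JAG1 against washout, beside 15.7% of all genes. This was E2f1, a driver of S phase entry (log2 fold change 7.79 by DESeq2, adjusted p = 0.00277, and 6.55 by edgeR, adjusted p = 0.83). Fc-JAG1 1 and 3 held 2555 and 3392 counts of E2f1, and washout 1, 2 and 3 held 0, 1855 and 22. The call was lost without Fc-JAG1 1, Fc-JAG1 3 or washout 3 (values 6.47 to 9.52 over the 7 libraries left out). With compE against washout it called Nme1 higher and Wdr12 and Polr1b lower, beside 5.66% of all genes higher and 3.67% lower, and the last 2 are named because of their calls. Nme1 met the count rule for this comparison only through the compE libraries and Polr1b only through the washout libraries. The calls of Nme1 and Polr1b are therefore no independent support of their direction. Nme1 had 468 and 79 counts in compE 1 and 2 and 0 in the other 5 libraries, and it overlaps a readthrough gene on the same strand, so its counts are uncertain. Its call was lost without Fc-JAG1 1, compE 1, compE 2 or washout 1 (values 8.59 to 10.94), that of Polr1b without Fc-JAG1 1, Fc-JAG1 3, compE 1, washout 1 or washout 3 (−11.14 to −0.13), and that of Wdr12 without any 1 of the 7 (−6.44 to −0.49).

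Of 9 genes that MYC is known to repress, 7 were tested, and edgeR called 0 in each comparison. Their median log2 fold change by edgeR was 2.10 with Fc-JAG1 and 1.24 with compE against washout, beside 0.44 and −0.10 over all genes. By DESeq2 the medians were 4.50 and 6.40, beside 0.41 and −0.27 over all genes. Of the 7, Cebpa, Gadd45a and Ndrg1 passed the filter only through treated libraries and had 0 or 1 count in washout 1 and 3. The medians of so few genes are therefore no independent support of a direction. With Fc-JAG1 against washout, DESeq2 called 2 of the 7 higher, Cebpa and Gadd45a, and 1 lower, Klf6, beside 15.7% of all genes higher and 4.74% lower, and nothing is read from so few. Cebpa, a factor of myeloid differentiation, had 4255 and 1884 counts in Fc-JAG1 1 and 3, 528 and 629 in compE 1 and 2, while washout 1, 2 and 3 held 1, 1370 and 0 (log2 fold change 11.03 by DESeq2, adjusted p = 0.000482, and 5.74 by edgeR, adjusted p = 0.84). Gadd45a, a growth arrest gene, had 532 and 2697 counts in Fc-JAG1 1 and 3, 119 and 99 in compE 1 and 2, and 0, 287 and 0 in the washout libraries 1, 2 and 3. Both were thus at 0 or 1 count in washout 1 and 3, the libraries in which Max had 1 and 0 counts. In washout 1 and 3, 20.7% and 14.2% of all tested genes had 0 counts, and a link to Max was not tested. Against the washout, Cebpa and Gadd45a met the count rule only through the Fc-JAG1 libraries. Their calls as higher are therefore no independent support of that direction. Both calls were lost without Fc-JAG1 3 or washout 3 (values 6.20 to 13.54 for Cebpa and 5.05 to 14.06 for Gadd45a), and that of Klf6 without any 1 of the 7 libraries (−2.55 to −2.12). Over the 4 lists and 3 comparisons DESeq2 made 13 calls, and each of the 13 was lost when 1 library or another was left out. Without the replicate block, 2 of them remained, both of Nme1, 6 were lost and DESeq2 gave no adjusted p for the other 5.

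The genes most like Myc over the 7 libraries, by Pearson's r of log2 CPM, were Birc3 (0.993), Adgrg3 (0.990) and Ndufs7 (0.988). Birc3, an inhibitor of apoptosis, had 1628 and 2 counts in Fc-JAG1 1 and 3, 99 and 1456 in compE 1 and 2, and 581, 1116 and 4779 in the washout libraries 1, 2 and 3. Those most like Max were Ndufb7 (0.997), Zc3h13 (0.996) and Tmem45b (0.996). Among the members, Mxi1 was most like Max (0.91), and the member most like Myc was Mnt (0.52). The genes named first were picked as the highest among all tested genes, so the size of their coefficients is no evidence of a link. All of these coefficients describe 7 libraries that differ in how many genes were seen, and none was tested.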

How the data were processed

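Reads were trimmed by the authors (cutadapt 4.2), then mapped to GRCm38, named mm10 in the submitters' notes, with STAR 2.7.8. They assigned uniquely mapped reads to genes with featureCounts of Subread 2.0.1. The raw counts used here are as deposited, whole numbers with no normalization, 1 column per library. The deposited filtered counts served only to check the filter, which gave the same 10311 genes, and the deposited transformed values were not used. Libraries were grouped by their labels. Genes were tested with edgeR 4.0.16 in R 4.3.3 (quasi-likelihood, TMM scaling, biological sample and condition as terms, all 7 libraries in 1 fit), with Benjamini-Hochberg adjustment over the 10311 genes. A gene was called at an adjusted p under 0.05 with 10 counts or more in 2 libraries of either condition compared. This count rule was taken from all 7 libraries, also in fits that left a library out. DESeq2 1.42.0 and limma 3.58.1 (voom), other scalings, no filter, no block and leaving out each library were alternatives. Log2 CPM had a prior count of 2. The code of the fits was tested on simulated data of much lower dispersion than the real counts, so that test says nothing of their power here. All members, the 3 genes of each list with the smallest edgeR p against washout, and the 3 genes most like Myc and Max are named, and other names are said to follow a call. Members and lists were chosen with earlier results of these data known. The study treats libraries of 1 number as paired. Deviations of such libraries from their group means correlated at −0.0854 to 0.0915 over 5 pairs, so the pairing rests on that statement. Without molecular identifiers, counts are not independent molecules, and p-values measure the spread between these samples.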

Additional observations from a re-analysis of the deposited data

How the results depend on the processing

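With 2 or 3 libraries per condition and a common dispersion of 2.42, edgeR called no gene, and what DESeq2 called (2108, 962 and 1175 genes for Fc-JAG1 against washout, compE against washout and Fc-JAG1 against compE, of which 2, 1 and 1 were members) moved with single libraries. Limma voom called 1 gene in each comparison. With no replicate block, edgeR called 1 gene with Fc-JAG1 against washout, and DESeq2 called 388, 325 and 190 genes in the 3 comparisons, of which 1, 0 and 1 were members. TMM factors in DESeq2 left 0 members called with compE against washout. Leaving out 1 library at a time, DESeq2 called 903 to 2573 genes (0 to 3 members) with Fc-JAG1 against washout, 27 (without compE 1) to 1704 (0 to 2 members) with compE against washout, and 102 (without compE 1) to 1469 (1 to 2 members) with Fc-JAG1 against compE. In sample 2 only compE 2 and washout 2 remain under the block, and in sample 3 only Fc-JAG1 3 and washout 3, so leaving out either of a pair has nearly the same effect. How the scaling moved all genes is given in the report.

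Of 24 edgeR fold changes of members, each tried under 14 alternatives, 36 of 336 values changed sign, none of them a called value, and 4 were called, all by DESeq2. By limma voom, Mycn with Fc-JAG1 against washout was 1.19 and Mxi1 −2.80, and Mxi1 was −2.31 by DESeq2 and −1.86 by the earlier quasi-likelihood test, added after the data were seen. Mnt with Fc-JAG1 against washout was −0.050 with no replicate block, −0.039 with the size factors of DESeq2 and −0.20 by DESeq2, and Max with Fc-JAG1 against compE was −0.97 with no replicate block. Leaving out 1 library at a time, the values with Fc-JAG1 against washout were −4.87 to 0.023 for Myc, −5.16 to 3.33 for Mycn, −7.02 to 4.06 for Mxi1 and −0.69 to 8.83 for Mnt. With compE against washout they were −3.36 to 0.25 for Myc, −0.78 to 3.89 for Mycn, −2.67 to 1.00 for Mxd4 and −0.86 to 2.96 for Mlx. With Fc-JAG1 against compE they were −4.07 to 0.82 for Myc, −9.04 to 0.15 for Mycn, −0.42 to 11.28 for Max, −10.24 to 3.39 for Mxi1 and −3.52 to 0.26 for Mlx. By DESeq2, Sin3b ranged between −10.97 and 10.75 with Fc-JAG1 against washout, and Wdr5 between −12.40 and 0.092 with compE against washout. The causes were not tested. Among DESeq2's own alternatives, values that it did not call also changed sign. With Fc-JAG1 against washout, Mlx was 0.22 without Fc-JAG1 1 (−1.51 with all libraries), Mnt 0.29 with TMM factors (−0.20 otherwise) and Mxi1 0.52 with no replicate block (−2.31 with it).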
